A study of Canis lupus familiaris with 10 samples.

Results

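The common gamma chain cytokine receptors are a family of receptors on lymphocytes and other leukocytes that share a subunit, the common gamma chain, which is encoded by IL2RG. The family was taken here as 7 genes chosen by name, namely IL2RG and the chains IL2RA, IL2RB, IL15RA, IL21R, IL4R and IL7R. All 7 were measured among the 800 genes of the nCounter Canine IO Panel, and all 7 were among the 761 genes that were tested, which were those with a mean of at least 20 normalized counts over the 10 samples. A normalized count is the number of colour-coded barcodes counted for a gene, scaled by the authors to control probes and housekeeping genes.

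The tissue was canine cutaneous histiocytoma (CCH), a skin tumour of the Langerhans cell lineage that often regresses by itself in dogs, archived as formalin-fixed and paraffin-embedded (FFPE) blocks. Early CCH comprised 5 tumours of group 1 and late CCH comprised 5 tumours of group 3 in the staging of Cockerell and Slauson, the latter labelled as lymphocyte enriched. The study describes group 1 as free of lymphocytes and group 3 as increasingly infiltrated by them. Levels of lymphocyte genes are therefore not independent of the grading. Each sample was trimmed tumour tissue of a different pet dog and none was pooled. The dogs were 0.5 to 5 years old in early CCH, where 1 age was not stated, and 1.5 to 9 years old in late CCH. No treatment or genotype is given in the labels, and the stages are different tumours graded by histology, not 1 tumour followed over time. The samples are called early 1 to 5 and late 1 to 5.

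These receptors pass their signal through IL2RG together with a second signalling chain. IL2RB pairs with IL2RG for interleukin 2 and interleukin 15, and the alpha chains IL2RA and IL15RA raise the affinity for the one or the other. IL4R, IL7R and IL21R pair with IL2RG for interleukins 4, 7 and 21. The kinase JAK3 sits on IL2RG and JAK1 on the partner chain, and the kinases activate STAT5 after interleukins 2, 7 and 15, STAT6 after interleukin 4, and chiefly STAT3 after interleukin 21. Loss of IL2RG, which lies on the X chromosome, causes severe combined immunodeficiency in humans and in dogs.

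Several properties of the samples moved with the stage. The barcode counts recovered from the deposited values summed to between 484696 and 823763 per sample in early CCH and to between 945399 and 1253083 in late CCH. DV200, the percentage of RNA fragments over 200 nucleotides, ran from 64.5 to 71.2 in early CCH and from 71.2 to 75.8 in late CCH, as the sample labels give it. The study's own sample sheet gives another DV200 for late 5, which bears on every fit below that has DV200 as a covariate. The study's sample sheet puts all early samples on 1 nCounter cartridge and all late samples on another, so cartridge and stage cannot be told apart, and it gives 3 RNA extraction batches within early CCH and 2 others within late CCH. The ratio of the brightest to the next positive control probe was 2.09 to 2.17 in early and 2.72 to 2.84 in late CCH, and the background was 21.8 to 38.2 and 19.2 to 26.9 normalized counts. The 19 tested T cell markers had a summed level of 1229 to 17095 normalized counts in early CCH and of 24033 to 39801 in late CCH, counting also ZAP70, which was below background in every sample. Early 3 and early 4 were the highest in T cell markers within their stage. On the log2 scale the early tumours formed a graded series, with marker means of 5.34, 6.59, 7.61, 8.84 and 9.12 in early 1, 5, 2, 4 and 3. Their CD3E level, which encodes a chain of the T cell receptor complex, was 3402 and 2090 normalized counts, against 42.3, 716 and 275 in early 1, 2 and 5. The main results are therefore also given without these 2 samples, an alternative chosen after the values were seen. Early 1, the lowest, was left out only among the fits that left out 1 sample. Without it the log2 fold change of CD3E, early minus late, moved from -3.18 to -2.25. CD207, which encodes the Langerhans cell protein langerin and was singled out after its values were seen, exceeded the background of the negative probes in 1 early and 1 late tumour, with 7.56 to 38.6 normalized counts over the 10 tumours.

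The members divided into 3 patterns. IL2RG and IL21R were higher in late CCH with no overlap of the stages, as 24.6% of all tested genes separated in one direction or the other, IL2RB and, by a small margin, IL4R were higher in late CCH with overlap, and IL2RA, IL15RA and IL7R did not pass either threshold. A gene was called when its Benjamini-Yekutieli (BY) adjusted p, from limma over all 761 tested genes, was at most 0.05 and its change was at least 2-fold, and the milder rule of Benjamini and Hochberg (BH), an adjusted p no higher than 0.05, is given beside it. By the first rule 2 of 7 chains were called, both higher in late CCH, against 11.2% of all tested genes in either direction, 9.2% higher in late and 1.97% higher in early CCH. At these thresholds the study's own nCounter analysis of this contrast, run in nSolver, reported no gene. The calls here are those of limma. By the BH rule 4 of 7 chains passed, all higher in late CCH, against 35.7% of all tested genes in either direction and 27.3% higher in late CCH. Without early 3 and early 4 the calls were 3 of 7, with IL2RB added, against 13.7% of all tested genes, and 3 of 7 passed the BH rule, with IL4R lost, against 32.7%. The median log2 fold change, early minus late, was -0.61 over the 7 chains and -0.18 over all tested genes. The p-values measure the spread between these dogs' tumours. In these bulk samples, fewer cells of a type and less RNA per cell cannot be told apart.

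**Figure D1:**
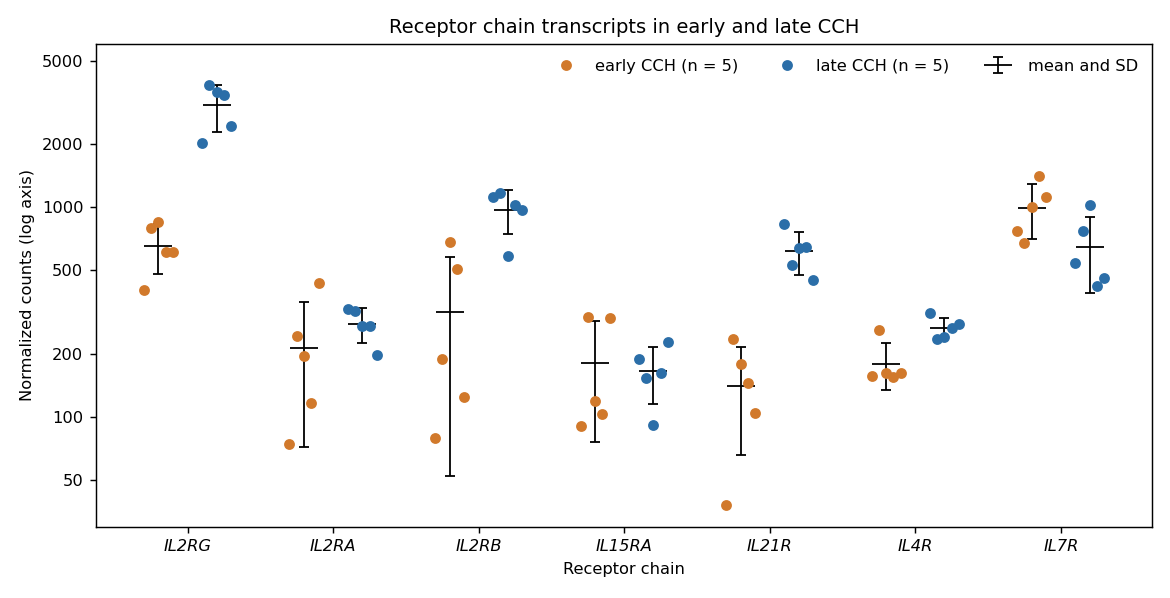
Normalized counts (log axis) of the 7 receptor chains in each tumour, with early CCH in orange and late CCH in blue (n = 5 each). Points are tumours in the order of their replicate numbers, and the black marks are the mean and SD. The 5 late tumours lie above the 5 early ones for IL2RG and IL21R, and the stages overlap for the other 5 chains.

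IL2RG, the shared chain, measured 404, 801, 846, 613 and 614 normalized counts in early 1 to 5, and 2018, 3844, 3542, 3427 and 2449 in late 1 to 5. The lowest late tumour was thus well above the highest early tumour, and early 3 and early 4, with their high T cell markers, were close to early 2 and early 5. The mean was 656 ± 176 (SD, n = 5) in early CCH and 3056 ± 781 (SD, n = 5) in late CCH. Early minus late, this was a log2 fold change of -2.22 (SE 0.25, 95% interval -2.78 to -1.67), or a 4.67-fold higher level in late CCH, with a BY adjusted p of 0.00476 in limma. By its p IL2RG ranked 4 among the 761 tested genes, and by the size of its log2 fold change it ranked 61 among the genes higher in late CCH. It was the only chain called in all 10 fits that left out 1 sample, where the log2 fold change lay between -2.36 and -2.06. Without early 3 and early 4 it was -2.34. The call was lost with DV200 as a covariate, where the log2 fold change was -1.94 (BY adjusted p 0.243 and BH adjusted p 0.0336 in limma), and among male dogs alone, where it was -2.25 with 3 early and 4 late samples (BY adjusted p 0.13).

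IL21R, the receptor chain for the helper T cell cytokine interleukin 21, measured 38.1, 236, 180, 145 and 104 normalized counts in early 1 to 5, and 830, 530, 640, 648 and 450 in late 1 to 5. The stages did not overlap, and early 1 was the lowest of all 10 tumours. The mean was 141 ± 74.9 (SD, n = 5) in early CCH and 620 ± 143 (SD, n = 5) in late CCH, and the log2 fold change was -2.33 (SE 0.43, 95% interval -3.30 to -1.37), a 5.03-fold difference with a BY adjusted p of 0.0248 in limma. This call was less stable than that of IL2RG. It was kept in 4 of 10 fits that left out 1 sample and lost without early 5 or without any of late 1 to 5, with BY adjusted p-values up to 0.0825, while the log2 fold change stayed between -2.57 and -1.92. It was also lost when DV200 entered the fit and when male dogs alone were compared, at -2.09 and -2.51 (BY adjusted p 0.761 and 0.213 in limma). Without early 3 and early 4 it was kept, at -2.62 (BY adjusted p 0.0404 in limma).

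IL2RB, the signalling chain shared by interleukins 2 and 15 on T cells and natural killer cells, measured 79.3, 188, 679, 507 and 125 normalized counts in early 1 to 5, and 1117, 1168, 587, 1022 and 975 in late 1 to 5. Early 3 exceeded late 3, and early 3 and early 4 were both far above the other 3 early tumours. The mean was 316 ± 263 (SD, n = 5) in early CCH and 974 ± 229 (SD, n = 5) in late CCH. Its log2 fold change of -2.04 (SE 0.55, 95% interval -3.26 to -0.81) passed the BH threshold with an adjusted p of 0.017 but not the BY threshold with 0.122 in limma. Without early 3 the log2 fold change was -2.42 and IL2RB was called with a BY adjusted p of 0.0387. Without both early 3 and early 4 it was -2.93, with a BY adjusted p of 0.00328. With DV200 as a covariate it was -1.31 and passed neither threshold.

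The alpha chains passed neither threshold. IL2RA, which completes the high-affinity interleukin 2 receptor of activated and regulatory T cells, measured 74.1, 243, 195, 117 and 434 normalized counts in early 1 to 5, and 327, 320, 271, 272 and 197 in late 1 to 5. The early tumours spread on both sides of the late ones, with early 5 the highest of all 10 and early 1 the lowest. The difference on the log2 scale was -0.61 (SE 0.42, 95% interval -1.55 to 0.32) with a BH adjusted p of 0.277 in limma. It was -0.23 under the geometric mean scaling, -0.012 under quantile normalization, -1.15 with DV200 as a covariate and -0.46 without early 3 and early 4, and leaving out 1 sample moved it from -0.94 (without early 5) to -0.30 (without early 1). IL15RA, which presents interleukin 15 to neighbouring cells, measured 91, 300.2, 119, 104 and 296 normalized counts in early 1 to 5, and 190, 154, 91.8, 163 and 229 in late 1 to 5. Early 2 and early 5 were higher than every late tumour, and the other early tumours were no higher than 119. Its log2 fold change was 0.0018 (SE 0.40, 95% interval -0.90 to 0.90), and 0.34 without early 3 and early 4. It was 0.39 under the geometric mean scaling, 0.64 under quantile normalization and -1.02 with DV200 as a covariate.

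IL4R, which binds interleukin 4 and also forms the interleukin 13 receptor with IL13RA1, measured 158, 261, 162, 155 and 163 normalized counts in early 1 to 5, and 313, 236, 242, 266 and 278 in late 1 to 5. All late tumours were above early 1, 3, 4 and 5, while early 2 lay inside the late range. Its log2 fold change of -0.59 (SE 0.19, 95% interval -1.02 to -0.17) passed the BH threshold with an adjusted p of 0.0357 and missed the BY threshold with 0.257 in limma. This small difference depended on the scaling of the samples. It was -0.20 when samples were scaled to the geometric mean of the tested genes and turned to 0.059 under quantile normalization, settings that moved the median of all tested genes from -0.18 to 0.21 and 0.20. It passed the BH threshold in 3 of 10 fits that left out 1 sample, those without early 2, late 2 or late 3, and not without early 3 and early 4, where it was -0.49 (BH adjusted p 0.137 in limma). Nor did it pass with DV200 as a covariate, at -0.71, or among male dogs alone, at -0.56 (BH adjusted p 0.176 and 0.186 in limma).

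IL7R, which binds the T cell survival factor interleukin 7 and, with CRLF2, the epithelial cytokine TSLP, was the chain with the largest excess in early CCH. It measured 768, 675, 1008, 1408 and 1124 normalized counts in early 1 to 5, and 542, 771, 1029, 420 and 459 in late 1 to 5. Late 2 and late 3 lay inside the early range and the other 3 late tumours lay below it. The mean was 997 ± 292 (SD, n = 5) in early CCH and 644 ± 254 (SD, n = 5) in late CCH. This log2 fold change of 0.66 (SE 0.29, 95% interval 0.02 to 1.31) did not pass, with a BH adjusted p of 0.101 in limma. It was 1.05 after scaling to the geometric mean and 1.11 after quantile normalization, and in both its BH adjusted p passed, at 0.016 and 0.0155. It also passed without late 3, where the log2 fold change was 0.85 and the BH adjusted p 0.0326. Without early 3 and early 4 it was 0.46.

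Whether the chains changed to a different extent than IL2RG was tested on the log2 value of each gene minus that of IL2RG in the same sample, a quantity that scaling a sample by a constant leaves nearly as it is. On this scale 554 of 760 tested genes, or 72.9%, were called, all of them relatively higher in early CCH, IL2RG having a larger excess in late CCH than most genes. By the BH rule 81.1% of the tested genes passed, 80.7% of the tested genes being relatively higher in early CCH. Of the 6 other chains, 4 were called, and the same 4 passed the BH rule, a share no higher than among all tested genes. A gene without a stage difference of its own takes on that of IL2RG here. IL15RA, for instance, had a log2 fold change of 0.0018 by itself. The difference from IL2RG was 2.89 for IL7R (SE 0.36, BY adjusted p 6.2e-05), 2.23 for IL15RA (SE 0.45, BY adjusted p 0.00254), 1.63 for IL4R (SE 0.35, BY adjusted p 0.0041) and 1.61 for IL2RA (SE 0.41, BY adjusted p 0.0141), all on the log2 scale in limma. The log2 ratio of IL7R to IL2RG was -0.25 to 1.20 in the early tumours and -3.03 to -1.78 in the late ones, with no overlap. The ratios of IL15RA, IL4R and IL2RA to IL2RG did not overlap either, and IL2RG separated the stages by itself. The share of all tested genes that separate on this scale was not counted. A difference from IL2RG was not detected for IL2RB, at 0.19 with a 95% interval of -0.85 to 1.23, nor for IL21R, at -0.11 with a 95% interval of -0.94 to 0.73. These intervals do not show that the chains changed alike. Each of the 4 calls was kept in all 10 fits that left out 1 sample, and among male dogs alone that of IL2RA was lost. With DV200 as a covariate that of IL7R was kept, at 3.07, and the others were lost, with IL15RA at 0.92, IL2RA at 0.79 and IL4R at 1.22. All 4 were kept without early 3 and early 4, with IL7R at 2.80, IL15RA at 2.69, IL2RA at 1.89 and IL4R at 1.86.

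The chains were also set against the T cell markers, which do not include the 7 chains. Of the 19 tested T cell markers, 18 passed the BH threshold, all higher in late CCH, against 27.3% of all tested genes, and their median log2 fold change was -2.75. This direction was not independent of the grading, which rests in part on lymphocyte infiltration. With DV200 as a covariate 1 of 19 passed, among male dogs alone 11, and without early 5 12. In the early tumours the mean log2 level of these markers ran from 5.34 in early 1 to 9.12 in early 3, a 13.8-fold range, whereas on the same scale IL2RG covered a 2.09-fold range and IL7R a 2.08-fold range. IL2RB covered an 8.47-fold range and followed the order of the markers, from early 1 through early 5, 2 and 4 to early 3. Its log2 ratio to the T cell markers stayed between -0.05 and 0.99 in early CCH and between -0.60 and -0.04 in late CCH. The part of T cell number in any chain's difference was not tested.

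**Figure D2:**
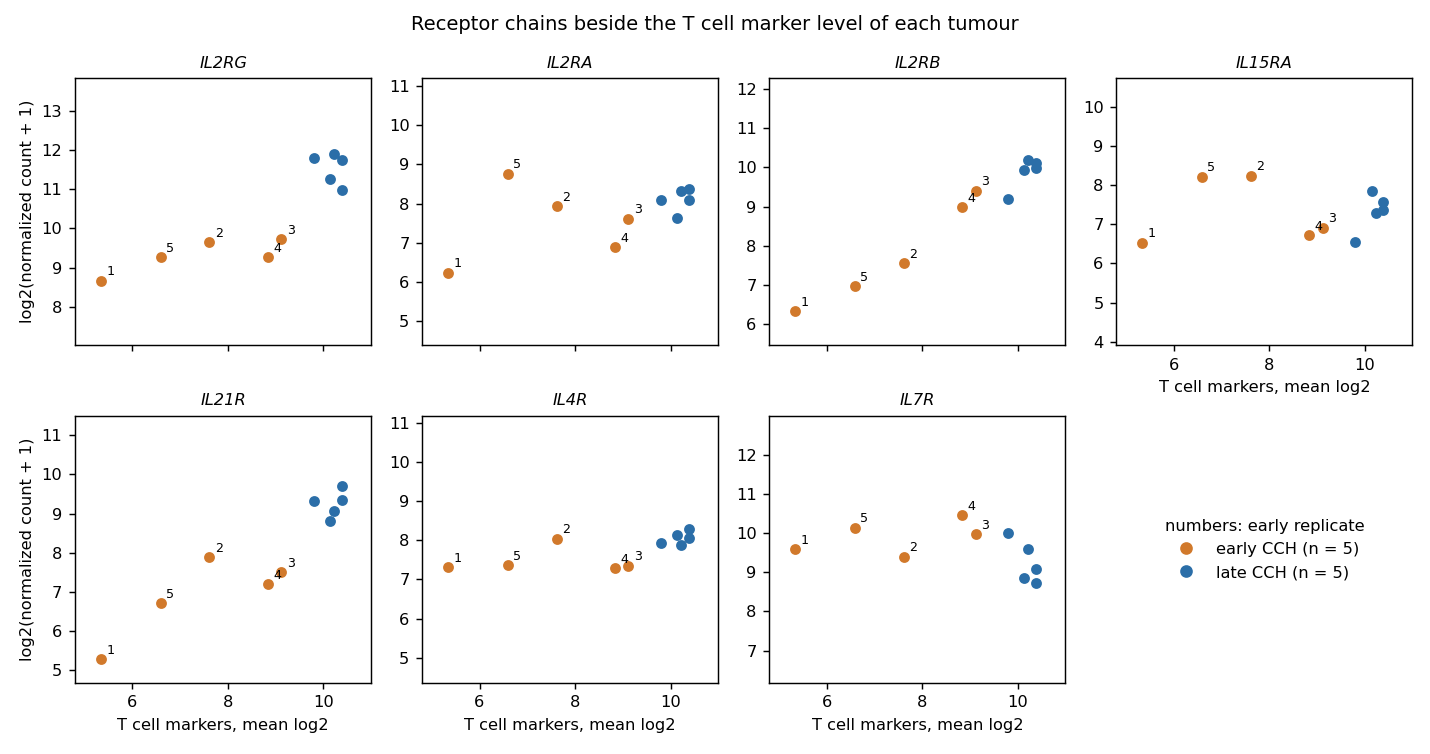
The log2 level of each receptor chain (y axis, log2 of the normalized count plus 1, the same span in each panel) beside the mean log2 level of the 19 tested T cell markers (x axis), with early CCH in orange and late CCH in blue (n = 5 each). Each point is a tumour and the numbers are early replicates. The early tumours stand in the same order for IL2RB as for the markers, and IL2RG and IL7R cover a 2.09-fold and a 2.08-fold range there.

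Relative to the mean of the T cell markers, 430 of 761 tested genes, or 56.5%, were called and 77.7% passed the BH rule, all relatively higher in early CCH. IL7R was called with a log2 difference of 3.35 (SE 0.71, BY adjusted p 0.011 in limma) and IL15RA with 2.69 (SE 0.75, BY adjusted p 0.0283 in limma). IL4R at 2.10 and IL2RA at 2.08 passed the BH threshold alone, with adjusted p-values of 0.0109 and 0.0141 in limma. IL2RG at 0.47 (95% interval -0.95 to 1.88), IL2RB at 0.66 (-0.50 to 1.81) and IL21R at 0.36 (-0.90 to 1.62) passed neither. The call of IL7R was kept in all 10 fits that left out 1 sample and that of IL15RA in 2 of 10, those without early 3 or without early 4. Neither was called with DV200 as a covariate, where IL7R was 3.04 and IL15RA 0.89, or with the extraction batch as a random block, where they were 3.20 and 2.47. Leaving out early 3 and early 4, the early tumours highest in these same markers, raises this difference for most genes by construction. IL2RG was then 1.33 and IL21R 1.06, and 661 of the 761 tested genes were called and 695 passed the BH rule, so no call is taken from that fit.

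The pathway around the receptors was described with a list of 42 ligands, partner chains, kinases, STATs, feedback regulators and targets, of which 35 were measured and tested. By the first rule 3 of 35 were called, namely JAK3 and EOMES, higher in late CCH, and IL13RA1, higher in early CCH, against 11.2% of all tested genes. By the BH rule 13 of 35 were higher in late CCH and 4 higher in early CCH, against 27.3% and 8.41% of all tested genes. Without early 3 and early 4 there were 5 calls among the 35, with PRF1 and STAT4 added, against 13.7% of all tested genes, and 17 passed the BH rule, against 32.7%. The median log2 fold change of the 35 was -0.38.

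Among the 7 ligands, interleukin 21 alone passed the BH threshold, higher in late CCH, in the scaling as deposited. Under the geometric mean scaling IL4, IL9, IL13 and IL15 also passed and under quantile normalization IL4, IL7 and IL15, all higher in early CCH, and with DV200 as a covariate 0 of 7 passed in limma, 1 having an unadjusted p under 0.05. IL21 measured 20.1, 76.3, 71.6, 47.8 and 26.5 normalized counts in early 1 to 5, and 89.3, 130, 169, 213 and 322 in late 1 to 5. The stages did not overlap, but 2 of the 5 early values were not above background. Its log2 fold change was -1.96 (SE 0.45) with a BH adjusted p of 0.00879 and a BY adjusted p of 0.0634 in limma, so ligand and receptor of this pair were both higher in late CCH, the ligand by the milder rule alone. Its log2 fold change was -2.25 without early 3 and early 4. IL2, the T cell growth factor, measured 296 to 382 normalized counts in early CCH and 400.3 to 419 in late CCH. It varied little within the stages, with SDs of 32.4 and 7.18 (n = 5 each). Early 1 had 296 although its CD3E level was 42.3. Whether this signal came from T cells was not tested. The stages did not overlap, yet the log2 fold change was only -0.24 (BH adjusted p 0.178 in limma) and it turned to 0.15 and 0.32 under the geometric mean and quantile scalings. IL15, which stromal and myeloid cells make, was at 906 ± 253 normalized counts in early CCH and 711 ± 176 in late CCH (SD, n = 5 each), with a log2 fold change of 0.32 and a BH adjusted p of 0.351 in limma. It was 0.71 and 0.73 under the geometric mean and quantile scalings, with BH adjusted p-values of 0.0215 and 0.0262. IL7 was at 118 ± 48.6 and 88.2 ± 15.8 (SD, n = 5 each), with a log2 fold change of 0.34, and of 0.72 and 0.92 under these scalings (BH adjusted p 0.0507 and 0.0237 in limma). IL4, IL9 and IL13 were above background in at most 2 samples of either stage, so no difference was read from them at this depth, under the other scalings included.

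IL13RA1, which joins IL4R in the receptor for interleukin 13, found chiefly on cells other than lymphocytes, differed the other way from IL2RG. It measured 2289, 1520, 1828, 2079 and 2041 normalized counts in early 1 to 5, and 749, 947, 925, 845 and 792 in late 1 to 5. No late tumour reached the lowest early one. The log2 fold change was 1.19 (SE 0.14, 95% interval 0.87 to 1.51) with a BY adjusted p of 0.00543 in limma, and the call was kept in all 10 fits that left out 1 sample. It was lost with DV200 as a covariate, at 1.25 (BY adjusted p 0.209 in limma), and among male dogs alone, at 1.23 (BY adjusted p 0.14 in limma). The call was kept, at 1.18, without early 3 and early 4. IL13RA2, a decoy receptor for interleukin 13, was at 52.7 ± 23.5 and 27.8 ± 7.6 (SD, n = 5 each), with a log2 fold change of 0.82 and a BH adjusted p of 0.0714 in limma. It passed under the geometric mean and quantile scalings, at 1.20 and 1.04 (BH adjusted p 0.0094 and 0.0207 in limma).

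JAK3, the kinase bound to the common gamma chain, measured 902, 1220, 683, 534 and 709 normalized counts in early 1 to 5, and 2230, 2078, 1709, 2431 and 1794 in late 1 to 5. No early tumour reached the lowest late one, and early 2 was the highest early tumour. Its log2 fold change was -1.38 (SE 0.22, 95% interval -1.87 to -0.90) with a BY adjusted p of 0.0141 in limma, and JAK3 was called in all 10 fits that left out 1 sample, although not under the geometric mean scaling (-0.99), with DV200 as a covariate (-1.53) or among male dogs alone (-1.27). The call was kept without early 3 and early 4, at -1.14. Of the 10 kinases and STATs, 8 passed the BH threshold, all higher in late CCH, against 27.3% of all tested genes. This count depended on the scaling, with 2 of 10 under the geometric mean scaling and 2 of 10 under quantile normalization, and it was 1 of 10 with DV200 as a covariate, 2 of 10 among male dogs alone and 7 of 10 without early 3 and early 4. JAK3 passed in each of these. Apart from JAK3 and STAT4 the log2 fold change was under 1 in size. It was -0.48 for JAK1, the kinase of the partner chains, -0.63 for STAT3, -0.63 for STAT5A and -0.65 for STAT5B. Under the geometric mean scaling these 4 were -0.09, -0.24, -0.24 and -0.26, and none of the 4 passed. The stages did not overlap in 7 of the 10 kinases and STATs, these 4, JAK3 and STAT6 among them, against 24.6% of all tested genes. STAT6, the factor downstream of interleukin 4, had -0.38, which was 0.0074 under the geometric mean scaling and passed in 8 of 10 fits that left out 1 sample. STAT4, the factor downstream of interleukin 12, had -1.81 with overlap of the stages and passed the BH threshold in 4 of 10 fits that left out 1 sample, those without early 3, early 4, late 2 or late 3. JAK2 and TYK2, which other cytokine receptors use, had log2 fold changes of 0.02 and -0.0027.

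**Figure D3:**
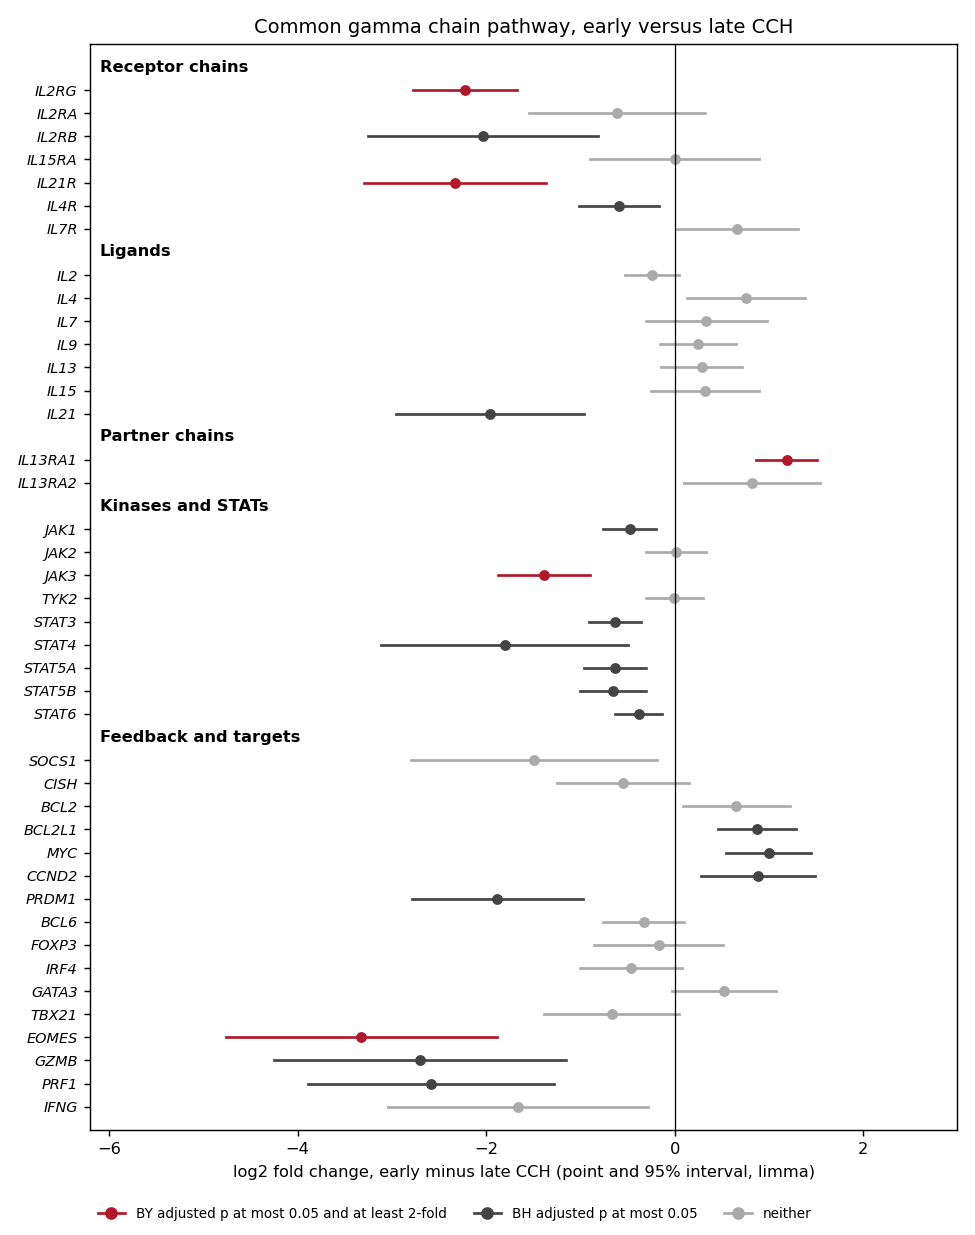
Log2 fold change, early minus late CCH, of the 7 receptor chains and the tested pathway genes reported here, with points for the limma estimate and lines for its 95% interval (n = 5 per stage). Red marks genes called by the BY rule with at least a 2-fold change, dark grey those past the BH threshold alone, and light grey neither. IL2RG, IL21R, JAK3 and EOMES are called to the left, higher in late CCH, and IL13RA1 to the right.

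Among feedback regulators and targets, 16 of 20 were measured and tested, of which 4 were higher in late and 3 higher in early CCH by the BH rule, against 27.3% and 8.41% of all tested genes. The 4 were EOMES, GZMB, PRF1 and PRDM1, of which GZMB and PRF1 also stand in the cytotoxic marker list. EOMES, a transcription factor of cytotoxic lymphocytes, was at 357 ± 327 normalized counts in early CCH and 2401 ± 571 in late CCH (SD, n = 5 each), with a log2 fold change of -3.32 and a BY adjusted p of 0.0297 in limma, called in 4 of 10 fits that left out 1 sample and lost without early 5 or any late sample. It was also lost among male dogs alone, at -3.51 (BY adjusted p 0.149 in limma), and with DV200 as a covariate, at -2.26 (BH adjusted p 0.163 in limma). It was kept without early 3 and early 4, at -4.18. The cytotoxic granule genes GZMB and PRF1 had log2 fold changes of -2.70 and -2.59, and PRDM1, the factor of terminally differentiated lymphocytes, had -1.88, with BH adjusted p-values of 0.0139, 0.00861 and 0.00712 in limma. IFNG, the effector cytokine interferon gamma, and TBX21, a transcription factor that acts on it, did not pass, at -1.66 and -0.67 with BH adjusted p-values of 0.0599 and 0.135 in limma. The 3 higher in early CCH were BCL2L1, MYC and CCND2. BCL2L1, an inhibitor of apoptosis, had a log2 fold change of 0.87, MYC had 1.00, just short of 2-fold, and CCND2, a cyclin, had 0.88, with BH adjusted p-values of 0.00676, 0.00489 and 0.0303 in limma. CCND2 passed in 5 of 10 fits that left out 1 sample. Under the geometric mean and quantile scalings BCL2L1 was called, at 1.26 and 1.29, and so was MYC, at 1.39 and 1.42, while CCND2 was 1.27 and 1.26 and passed the BH threshold alone. With DV200 as a covariate 0 of the 16 passed in limma, 8 having an unadjusted p under 0.05. Among male dogs alone 3 of the 16 passed, all higher in late CCH, so BCL2L1, MYC and CCND2 did not. Unadjusted, 8 of the 16 had a p under 0.05 there in limma. SOCS1, a feedback inhibitor of JAK kinases, did not pass, at -1.50 with a BH adjusted p of 0.0711, nor did the survival gene BCL2, at 0.65 with 0.0685 in limma. BCL2 passed under the geometric mean and quantile scalings, at 1.04 and 1.05 (BH adjusted p 0.0132 and 0.0146 in limma), and in 2 of 10 fits that left out 1 sample, those without early 2 or late 3.

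Markers of other cell types were counted beside the receptor chains, where 27.3% of all tested genes were higher in late CCH and 8.41% higher in early CCH by the BH rule. The natural killer and cytotoxic list had 7 of 10 tested genes past the BH threshold, all higher in late CCH, with a summed level of 1083 to 7242 normalized counts in early and 9024 to 24460 in late CCH. The B cell list had 8 of 12, all higher in late CCH, with sums of 2704 to 4510 and 5228 to 21423. Of these MS4A1, which encodes the B cell protein CD20, was above background in 1 early sample and in all late samples. The number of B cell genes higher in late CCH by the BH rule was not stable. It ran from 4 (without late 4) to 8 (without late 1 or late 5) when 1 sample was left out. It was 4 without early 3 and early 4, 4 with the background floor and 3 among male dogs alone. The Langerhans and dendritic list was mixed, with 4 of 12 higher in late and 3 of 12 higher in early CCH and sums of 9161 to 12342 and 9840 to 12279. Its highest log2 fold change was 2.49 for FLT3, a receptor of the dendritic cell lineage, and its lowest -1.90 for CD209, which did not pass (BH adjusted p 0.0658 in limma). The macrophage list had 3 of 11, all higher in late CCH, with sums of 3463 to 11906 and 8545 to 15701. Leaving out 1 sample moved the count higher in late CCH from 1 (without late 1) to 4 (without early 2 or late 3). Of the 7 tested keratinocyte genes and the 4 proliferation genes 0 passed the BH threshold in limma, with 0 and 1 at an unadjusted p under 0.05, and the keratinocyte sums ran from 964 to 5914 and from 945 to 4124. With DV200 as a covariate 0 of 10 natural killer and cytotoxic, 0 of 12 B cell and 1 of 11 macrophage genes passed in limma (6, 1 and 4 at an unadjusted p under 0.05), and 2 of 12 Langerhans and dendritic genes, both higher in early CCH. The part of these cell types in the chains' differences was not tested.

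The genes whose pattern over the 10 tumours was nearest to each chain were found by the root mean square difference of log2 values, each gene centred on its own mean. For IL2RG the 5 nearest were PLCG1, a phospholipase of receptor signalling, at 0.42, the macrophage growth factor CSF1 at 0.45, the signalling factor SMAD3 at 0.46, the MHC class I gene DLA88 at 0.47 and the interferon regulatory factor IRF1 at 0.48, against a median of 1.17 over all tested genes. DLA88 has near-identical relatives in the MHC, so its value is uncertain. Among the chains IL21R was the closest to IL2RG, at 0.54 and rank 14, followed by IL2RB at 0.79 and rank 115, and IL7R was the farthest, at 1.52 and rank 639. The 5 genes shared the step between the stages with IL2RG, and none of them was among the 5 nearest once each stage was centred on its own mean.

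**Figure D4:**
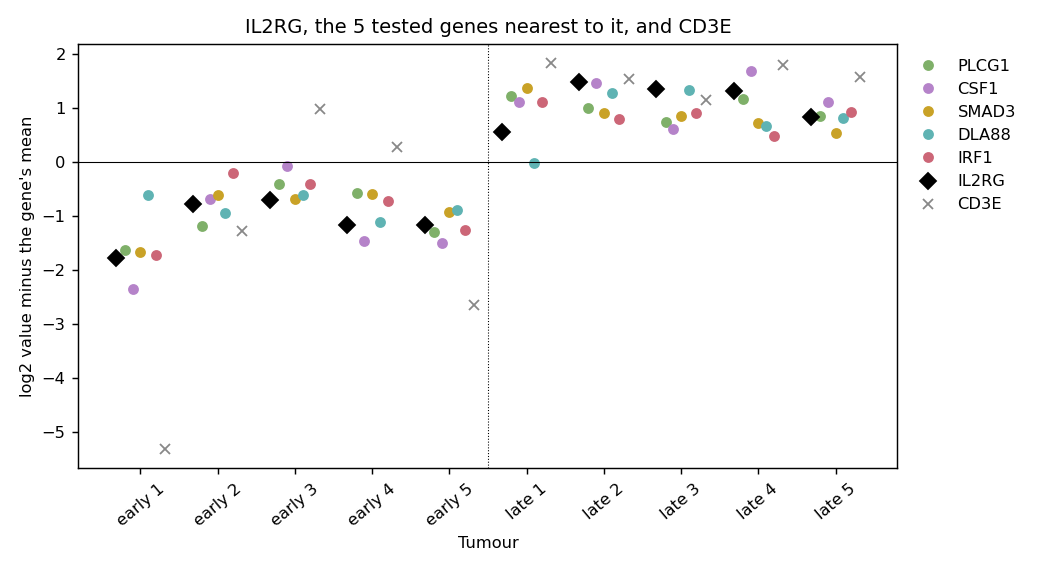
Log2 value minus the gene's mean over the 10 tumours (y axis) for IL2RG (black diamonds), the 5 tested genes nearest to it (coloured circles) and the T cell marker CD3E (grey crosses), for early 1 to 5 and late 1 to 5. IL2RG lies below 0 in all 5 early tumours and above 0 in all 5 late ones, whereas CD3E ranges from -5.31 in early 1 to 0.99 in early 3 within early CCH.

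For IL2RB the 3 nearest genes were the costimulatory receptor CD27, itself one of the T cell markers, at 0.32, the lymphocyte transcription factor ETS1 at 0.33 and the chemokine receptor CXCR6 at 0.33, and the same 3 were nearest after stage means were removed. For IL21R they were PDCD1LG2, a ligand of the checkpoint receptor PD-1, at 0.35, the interferon-induced gene GBP5 at 0.46 and IRF1 at 0.47. For IL7R they were CKLF at 0.26, TFEB at 0.28 and GATA3, a transcription factor of T cells and skin epithelium, at 0.29. For IL2RA they included the chemokine receptor family member CCRL2 at 0.32 and the adaptor TRAF2 at 0.38. IL4R was nearest to MAPKAPK2, IKBKE and SMARCA4, at 0.18, 0.18 and 0.19, and IL15RA to TNFSF13, TNFRSF12A and ITGA5, at 0.35, 0.39 and 0.40. These are descriptions over 10 tumours in 2 stages.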

How the data were processed

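Total RNA of 10 CCH tumours was hybridised to the nCounter Canine IO Panel, whose probes were designed on CanFam3.1. The deposited values are a signal that the authors normalized in nSolver 4.0, first to positive controls and then to housekeeping genes; background subtraction was not stated. The values were whole multiples of a step in each sample (at least 99.4% within 0.0051), which gave recovered barcode counts for depth only. Background was the mean plus 2 SD of the 8 negative probes.

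Groups were taken from the sample labels. log2(normalized count + 1) was fitted in R 4.3.3 with limma 3.58.1 (lmFit and eBayes with trend) over the 10 samples. The only term was the stage, early minus late, and a negative value is a higher level in late CCH; fold changes on this scale understate those of low genes. Genes with a mean under 20 were left out, and p-values were adjusted over the 761 tested genes. The fits relative to IL2RG and to the T cell markers used the same model. The fit of early against late CCH was tested on simulated data. The scaling, filter, pseudocount, background floor, variance model, covariates and single samples were varied. The genes named are the 7 chains, the listed pathway genes, the genes nearest to each chain, the defining markers and the extremes of a list, and some that the rule would name are not reported here. The members and lists were chosen with earlier results of these data known. The 7 symbols matched the RefSeq gene table of the assembly UU_Cfam_GSD_1.0, whose coordinates were not used.

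Barcode counting has no amplification step, and the 5 tumours per stage limit the precision.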

Additional observations from a re-analysis of the deposited data

Results flagged for a closer look

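Of 82 groups of 5 samples checked (each chain, named pathway gene and defining marker in each stage, and the mean T cell marker level), 5 held a sample whose gap to the nearest other exceeded Dixon's 95% critical value, which is 6.1% where chance gives about 5%. IL4R in early 2 was at 261.21 normalized counts, against 154.85 to 162.95 in the other early samples. PRF1 in early 3 was at 684.76, against 64.53 to 189.97 in the other early samples. The other 3 were in late 3. BCL2 in late 3 was at 1041.66, against 606.43 to 650.25 in the other late samples, GZMB was at 613.12, against 4737.56 to 5419.75, and MS4A1 was at 1039.5, against 54.01 to 210.81. Late 3 thus held the most B cell marker and the least granzyme B transcript of its stage, and the log2 fold change of GZMB was -2.70 with it and -3.32 without it.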

How the results depend on the processing

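The fits rest on 5 dogs per stage, DV200 scarcely overlaps between the stages, and cartridge cannot be separated from stage. IL2RG kept its direction in every alternative run and its call in all but 2, DV200 as a covariate (-1.94) and male dogs only (-2.25), and lay between -2.36 and -2.06 when 1 sample was left out. The number of chains called, 2 in the fit as reported, was 0 with DV200 and 0 in male dogs (4 and 4 at an unadjusted p under 0.05 in limma, 1 and 3 by the BH rule), 1 with the replicate block, 4 by the BH rule and 1 (without early 5 or any late sample) to 3 (without early 3) when 1 sample was left out. For all genes, 85 as reported, it was 0, 0, 1 (IL2RG) and 272 in the same order, and 39 (without late 1) to 98 (without early 3), with 47, 48, 41 and 52 without early 5, late 2, late 4 and late 5. In limma 197 genes with DV200 and 278 in male dogs had an unadjusted p under 0.05, and 45 and 133 passed the BH threshold. For the pathway, 3 as reported, it was 0 with DV200, 0 in male dogs, 0 with the replicate block (15, 18 and 21 at an unadjusted p under 0.05, and 2, 7 and 12 by the BH rule, in limma), 5 under geometric mean scaling (BCL2L1, MYC and IL4 gained, JAK3 lost), 5 under quantile normalization (BCL2L1 and MYC gained), 6 with array weights, 6 with the extraction batch as a random block, 5 without early 3 and early 4, 17 by the BH rule and 2 to 5 (without early 2) when 1 sample was left out.

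Some signs turned. IL4R, -0.59 as reported, was 0.059 under quantile normalization. IL15RA was -0.049 with array weights, -1.02 with DV200, -0.17 in male dogs and -0.23 to 0.20 when 1 sample was left out. IL2 was 0.15 under geometric mean scaling and 0.32 under quantile normalization, STAT6, -0.38 as reported, was 0.0074 under geometric mean scaling, and IL7 was -0.14 with DV200. Relative to IL2RG, IL2RB was -0.59 without early 3 and early 4 and -0.11 to 0.41 when 1 sample was left out, and IL21R was 0.13 under quantile normalization, 0.16 with array weights and -0.27 to 0.14 when 1 sample was left out. Relative to the T cell markers with DV200, IL2RG was -0.030 and IL21R -0.18.

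The replicate numbers are shared by the stages but name different dogs, and deviations of same-numbered samples correlated at -0.20 to 0.16, so the numbers were not taken as pairs. The replicate block left the call of IL2RG (BY adjusted p 0.0194 in limma) and lost that of IL21R (0.127) and, relative to IL2RG, that of IL2RA.

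Relative to IL2RG, DV200 gave 1 called chain and 277 called genes, against 4 and 554 as reported. Relative to the T cell markers, where 2 chains and 430 genes were called, array weights gave 5 and 680, the fit without early 3 and early 4, which lowers the marker mean of early CCH by construction, gave 4 and 661, the BH rule gave 4 chains, and leaving out 1 sample gave 1 to 4 chains and 95 (without late 4) to 564 (without early 3) genes, with 286, 109, 171 and 220 without early 2, early 5, late 1 and late 5. DV200 gave 0 chains and 0 genes there, and the extraction batch as a random block also gave 0 and 0, with 1 chain in each and 166 and 368 genes at an unadjusted p under 0.05, and 0 chains and 2 genes in each by the BH rule, in limma. After stage means were removed, 0 of the 5 genes nearest to IL2RG, 0 of 3 for IL7R, 1 of 3 for IL15RA and 1 of 3 for IL21R were found again. The causes were not tested.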
